A study of Caenorhabditis elegans with 83 samples.

Results

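Small RNA reads were followed over genes known as targets of ERGO-1, an Argonaute protein of Caenorhabditis elegans that carries the small RNAs called 26G siRNAs. The rule lists them by sequence name and uses no measured value, although the list was drawn up with earlier results of these data known. It held 9 genes: H09G03.1, C18D4.6, K02E2.6, F52D2.6, C40A11.10, E01G4.5, E01G4.7, C44B11.6 and F55C9.3. Counts were analysed for 8 of them, out of 20449 gene rows in the SX1263 strain and 20390 in the EG6089 strain, and E01G4.7 was not analysed here. No library came from an ergo-1 mutant, so that whether these genes depended on ERGO-1 in these animals was not tested.

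26G siRNAs are short RNAs that begin with a G and are made on messenger RNAs by the RNA-dependent RNA polymerase RRF-3 together with Dicer and the ERI proteins. ERGO-1 holds the class found in oocytes and embryos, in which the methyltransferase HENN-1 protects the 3′ ends, while ALG-3 and ALG-4 hold the class found in the male germline. On ERGO-1 targets, further polymerases then make the more abundant secondary 22G siRNAs, which are taken up by other Argonautes such as NRDE-3, and many of these targets are duplicated genes of no known function. The series asks how methylation of histone H3 lysine 9 takes part in the inheritance of small RNAs, and MET-2 and SET-25 are methyltransferases that place it.

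The study sequenced small RNAs of whole day 1 adults grown at 20 degrees in 83 libraries of 28 groups. There were 3 libraries in each group, and 2 (replicates 1 and 3) in SX1263 wild-type P0 animals given anti-GFP bacteria. In SX1263, a strain with a GFP reporter, wild type was compared with the mutants met-2(n4256) and set-25(n5021) and with a double mutant of these same alleles, all at P0 and F3, and wild type and met-2(n4256) also at F15. In EG6089, another GFP reporter strain, they were wild type and the double mutant at P0 and F3. In every genotype and generation the lines descended from P0 animals that ate bacteria making dsRNA against GFP (anti-GFP lines) or bacteria with an empty vector (control lines). Later generations ate ordinary OP50 bacteria, so that P0 and the later generations also differed in food. All groups thus carried a reporter, and in the control lines the P0 animals had eaten empty-vector bacteria. RNA was extracted with TRIZOL and libraries were made with one of 2 small RNA kits, NEBNext or TruSeq, without a statement of which library had which.

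Gene counts per library ran from 3583283 to 18225929 in SX1263 (59 libraries) and from 2134929 to 6102965 in EG6089 (24 libraries). Levels are given as counts per 1000000 gene counts (CPM), scaled between libraries, and differences as log2 changes with their standard error (SE). A gene was called when edgeR's quasi-likelihood test gave a Benjamini-Hochberg adjusted p under 0.05 over all genes tested, and all 8 genes passed the low-count filter in every fit. The sources do not say whether libraries of a group came from separate cultures, so the p-values measure only the spread between these samples. The lowest level of any of the 8 genes in any library was 6.12 CPM, above the floor of 3 counts, which stood between 0.183 and 1.06 CPM for SX1263 libraries and between 0.482 and 1.304 CPM for EG6089 libraries and covers counting error only. The sources give neither the strand nor a read length for the counts, so 26G and 22G siRNAs, and sense and antisense reads, cannot be told apart. Fewer cells of a type and less RNA per cell cannot be told apart either in whole animals. Small RNAs counted on the met-2 gene, as a check of the genotypes, ran from 307.7 to 431.7 CPM in wild-type SX1263 libraries (median 354.9), from 85.75 to 113.2 in met-2, from 329.5 to 407.3 in set-25 and from 76.66 to 137.6 in the double mutant. On set-25 they ran from 228.0 to 296.9 CPM in wild type, from 158.2 to 197.3 in set-25, from 168.3 to 225.2 in met-2 and from 105.4 to 192.8 in the double mutant.

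The 8 genes lie on 4 chromosomes and differ in kind (coordinates on WBcel235, from the Ensembl annotation). H09G03.1 is annotated as a long intergenic noncoding RNA on chromosome III (3226514 to 3228057, plus strand, 4 exons). C44B11.6 is a single-exon gene of 189 bases on the same chromosome (3153148 to 3153336, plus strand). C18D4.6 (17535586 to 17538375, minus strand, 9 exons), F55C9.3 (19287009 to 19288173, minus strand, 6 exons) and K02E2.6 (20380561 to 20382036, plus strand, 6 exons) are protein-coding genes on chromosome V. K02E2.6 overlaps the noncoding gene K02E2.12 on the same strand, and its reads are uncertain to that extent. E01G4.5 (13472401 to 13473995, plus strand, 6 exons) is a protein-coding gene on chromosome II, and the pseudogene E01G4.7 begins 3475 bases to its right. C40A11.10 lies on chromosome II (2136552 to 2137329, minus strand), where the annotation carries it as the microRNA gene mir-8199. F52D2.6 is a protein-coding gene on chromosome X (1975992 to 1976594, plus strand, 2 exons). E01G4.5 is known as a locus at which endogenous siRNAs guide NRDE-3, and for the other members no function is stated here.

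Together the 8 genes took 1.11% ± 0.0598 (SD, n = 3) of all gene counts in wild-type SX1263 controls at F3, while met-2 had 0.547% ± 0.0716, set-25 0.706% ± 0.0800 and the double mutant 0.420% ± 0.0385. C44B11.6 had the highest level per kilobase of exon in wild type at F3, at 11760 ± 763 CPM per kilobase, which placed it at rank 4 of 12602 genes. E01G4.5 followed at 3401 ± 319.5 CPM per kilobase (rank 29) and K02E2.6 at 2598 ± 249.8 (rank 45). F55C9.3 stood at 1009 ± 113 CPM per kilobase, H09G03.1 at 556 ± 40.98, C40A11.10 at 417 ± 20.5, C18D4.6 at 248 ± 39.8 and F52D2.6 at 151 ± 32.9, the last at rank 719. No neighbours in this order overlapped between their libraries at F3. At P0, in contrast, K02E2.6 overlapped with E01G4.5, C18D4.6 with H09G03.1 and C40A11.10 with F52D2.6.

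In mutants that lack met-2, small RNAs on H09G03.1, C18D4.6, K02E2.6, E01G4.5 and C44B11.6 were mostly lower than in wild type, those on F55C9.3 were in some comparisons higher, and F52D2.6 differed in direction between comparisons, within SX1263 and between strains. In set-25 mutants the 1 gene called was C18D4.6. In control lines of SX1263 at F3, 5 of the 8 genes were called lower in met-2, where 10.3% of all genes tested were. In set-25, 1 of 8 was called lower, where 0.612% of all genes were, and in the double mutant 5 were called lower and 1 higher, where 19.7% and 18.6% were. The median log2 change of the 8 genes at F3 stood at -1.11 for met-2, -0.76 for set-25 and -1.24 for the double mutant, beside 0.03, 0.01 and 0.04 for the whole table. These comparisons shared their wild-type libraries.

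At P0 in SX1263 control lines, 6 of the 8 genes were called lower in met-2 (9.93% of all genes), 1 lower in set-25 (0.577%), and 5 lower with 1 higher in the double mutant (14.1% lower and 11.2% higher over all genes). At F15, 4 were called lower in met-2 (17.4%). In EG6089 the double mutant had 4 called lower and 1 higher at P0 (27.4% and 18.5% over all genes) and 6 lower and 1 higher at F3 (27.1% and 23.7%). For the EG6089 comparison at P0 the median of all genes was -0.106 on the log2 scale and moved to 0.0564 when RLE scaling replaced TMM. The split of calls over all genes moved with it, from 1679 higher and 2487 lower to 1987 and 2038.

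The anti-GFP lines, whose libraries are not those of the control lines, gave a like set of counts. Within a kind of line, the SX1263 comparisons of P0 shared their wild-type libraries, as did those of F3. Counts over several comparisons are thus not counts of independent tests. In SX1263 at P0, 4 genes were called lower in met-2 (8.37% of all genes), 1 in set-25 (0.403%) and 5 in the double mutant (10.9%). At F3, 4 were called lower in met-2 (12.8%), 1 in set-25 (0.498%), and 5 lower with 1 higher in the double mutant (16.5% and 16.3%). At F15 in met-2, 5 were called lower and 1 higher (15.5% and 14.7%). In EG6089, 6 were called lower in the double mutant at P0 (28.1%), and 6 lower with 1 higher at F3 (27.2% and 23.1%).

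**Figure D1:**
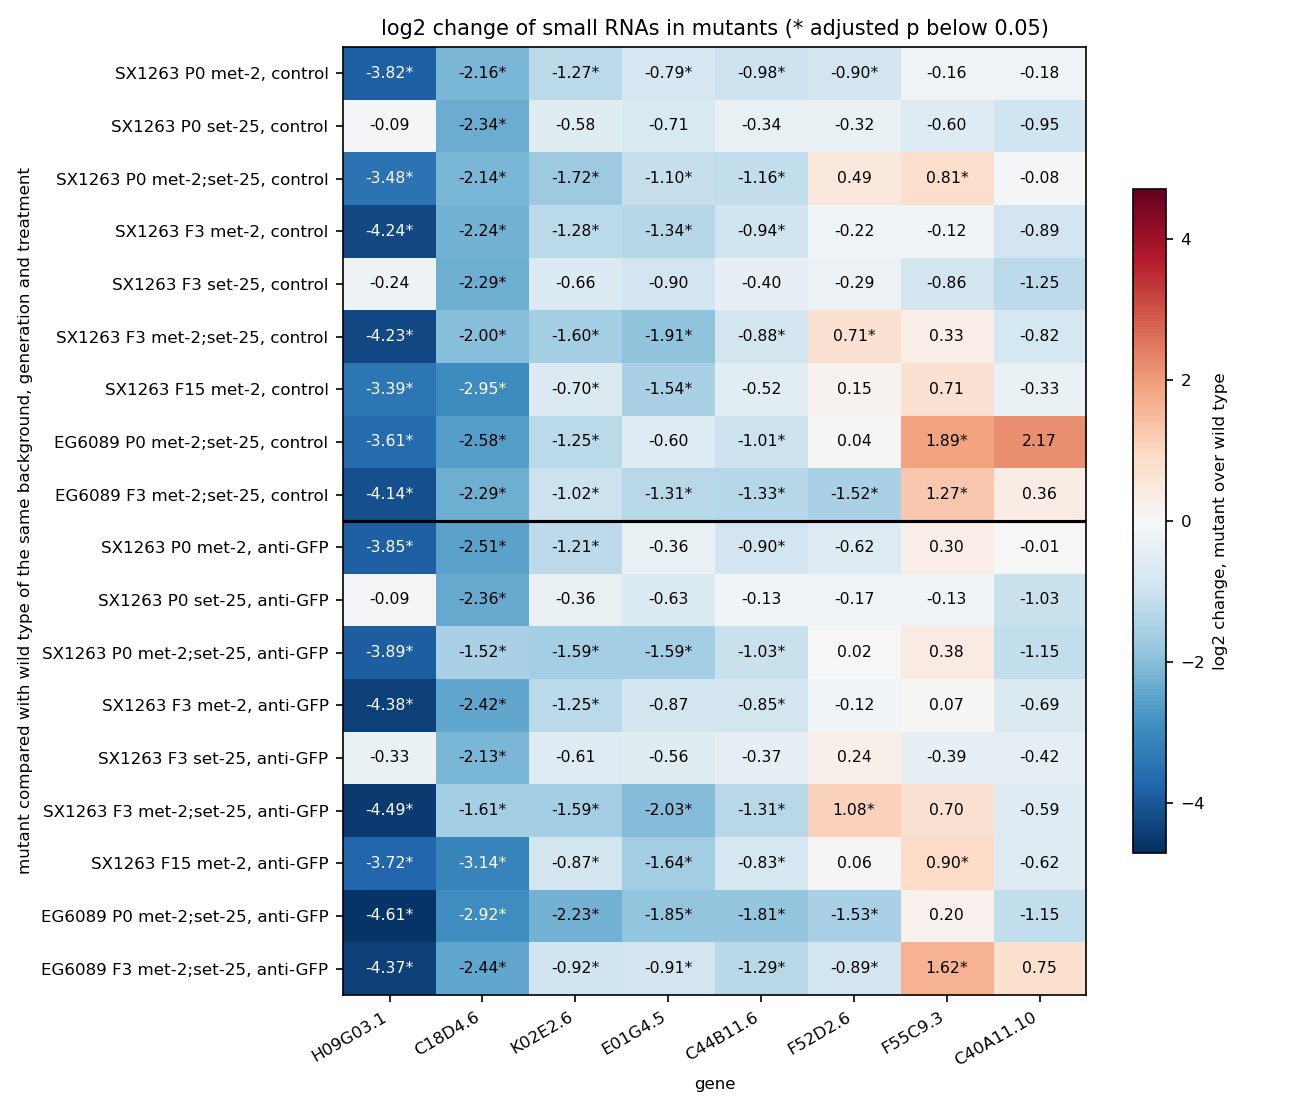
Log2 change of each of the 8 genes in each mutant against wild type, as a colour map with the value printed in each cell and an asterisk for called changes. Control lines are above the black line and anti-GFP lines below it. In control lines H09G03.1 lies between -3.39 and -4.24 in each of the 7 comparisons with met-2 mutated and near 0 in both with set-25 alone, while C18D4.6 is below -2 in all 9.

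H09G03.1 lost most of its small RNAs wherever met-2 was mutated. In SX1263 controls at F3 it had 248, 279 and 284 CPM in the 3 wild-type libraries and 15.4, 13.9 and 13.5 CPM in met-2. In the double mutant it had 16.5, 17.7 and 11.8 CPM, and in set-25 191, 222 and 279.8 CPM. The libraries of met-2 and of the double mutant all lay far below wild type, and those of set-25 overlapped with it. The log2 change was -4.24 in met-2 (SE 0.24, adjusted p = 3.7e-10) and -4.23 in the double mutant (adjusted p = 7e-10) by edgeR's quasi-likelihood test, and -0.24 in set-25 (adjusted p = 0.95).

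The same gene at P0 had 144, 167 and 148 CPM in wild type, 10.55, 12.6 and 9.58 CPM in met-2, and 13.97, 17.5 and 10.3 CPM in the double mutant. In set-25 at P0 it had 132, 184 and 115.5 CPM, around the wild-type values. At F15 wild type had 158, 127 and 173 CPM and met-2 had 9.87, 15.4 and 18.9 CPM. The low level in met-2 was thus present at each of the 3 generations, with log2 changes of -3.82 at P0 (SE 0.25) and -3.39 at F15 (SE 0.25). EG6089 gave 131, 149 and 148 CPM in wild type at P0 against 10.8, 13.75 and 11.96 CPM in the double mutant, and 199, 192 and 167 CPM against 6.998, 8.86 and 12.1 CPM at F3. Over all 14 comparisons with met-2 mutated, in both strains and both kinds of line, H09G03.1 was called lower each time without overlap of the libraries, by 10.5-fold to 24.5-fold. In the 4 comparisons of set-25 alone it was not called, with log2 changes of -0.09 to -0.33. H09G03.1 and met-2 both lie on chromosome III (met-2 at 8375300 to 8380848), and every met-2 mutant carried the same allele. Whether a linked difference had a part was not tested.

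C18D4.6 was called lower in the set-25 mutant as well, the 1 gene of the 8 so called in the fit reported here. In SX1263 controls at F3 it had 324, 420.3 and 319 CPM in wild type, and 60.5, 71.2 and 87.5 CPM in set-25. It had 43.0, 62.5 and 119.9 CPM in met-2 and 93.1, 92.1 and 91.3 CPM in the double mutant. Every mutant library lay below every wild-type one, and the 3 mutant genotypes overlapped among themselves or lay close together. The log2 change at F3 was -2.29 in set-25 (SE 0.30, adjusted p = 0.00034), -2.24 in met-2 (SE 0.30, adjusted p = 2.4e-05) and -2.002 in the double mutant (adjusted p = 6.3e-05) by edgeR's quasi-likelihood test.

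At P0, C18D4.6 had 716.5, 413.6 and 414.5 CPM in wild type, 170.8, 69.0 and 64.9 CPM in set-25, 156, 92.4 and 99.8 CPM in met-2 and 129, 137 and 92.3 CPM in the double mutant. Replicate 1 was the high library in wild type, set-25 and met-2, and the groups still did not overlap. The change in set-25 was -2.34 (SE 0.49, edgeR adjusted p = 0.022), and this call was lost when the compared groups were fitted alone (adjusted p = 0.085), without wild-type replicate 1 (0.095) and without set-25 replicate 2 (0.14) or 3 (0.15). At F15 wild type had 268.5, 404 and 252 CPM and met-2 had 36.4, 31.4 and 51.8 CPM, a log2 change of -2.95 (SE 0.38, edgeR adjusted p = 0.00035). EG6089 had 356, 452.5 and 430.1 CPM in wild type at P0 against 71.6, 91.1 and 53.4 CPM in the double mutant, and 303, 271 and 376 CPM against 66.8, 68.2 and 47.05 CPM at F3. Over 14 comparisons with met-2 mutated C18D4.6 was called lower in all, by -1.52 to -3.14 on the log2 scale, and over 4 with set-25 alone also in all, by -2.13 to -2.36. At P0 in anti-GFP lines, with 2 wild-type libraries, the call in set-25 was lost under 6 alternative settings (adjusted p 0.069 to 0.56) and so was that in the double mutant (adjusted p 0.051 to 0.33).

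**Figure D2:**
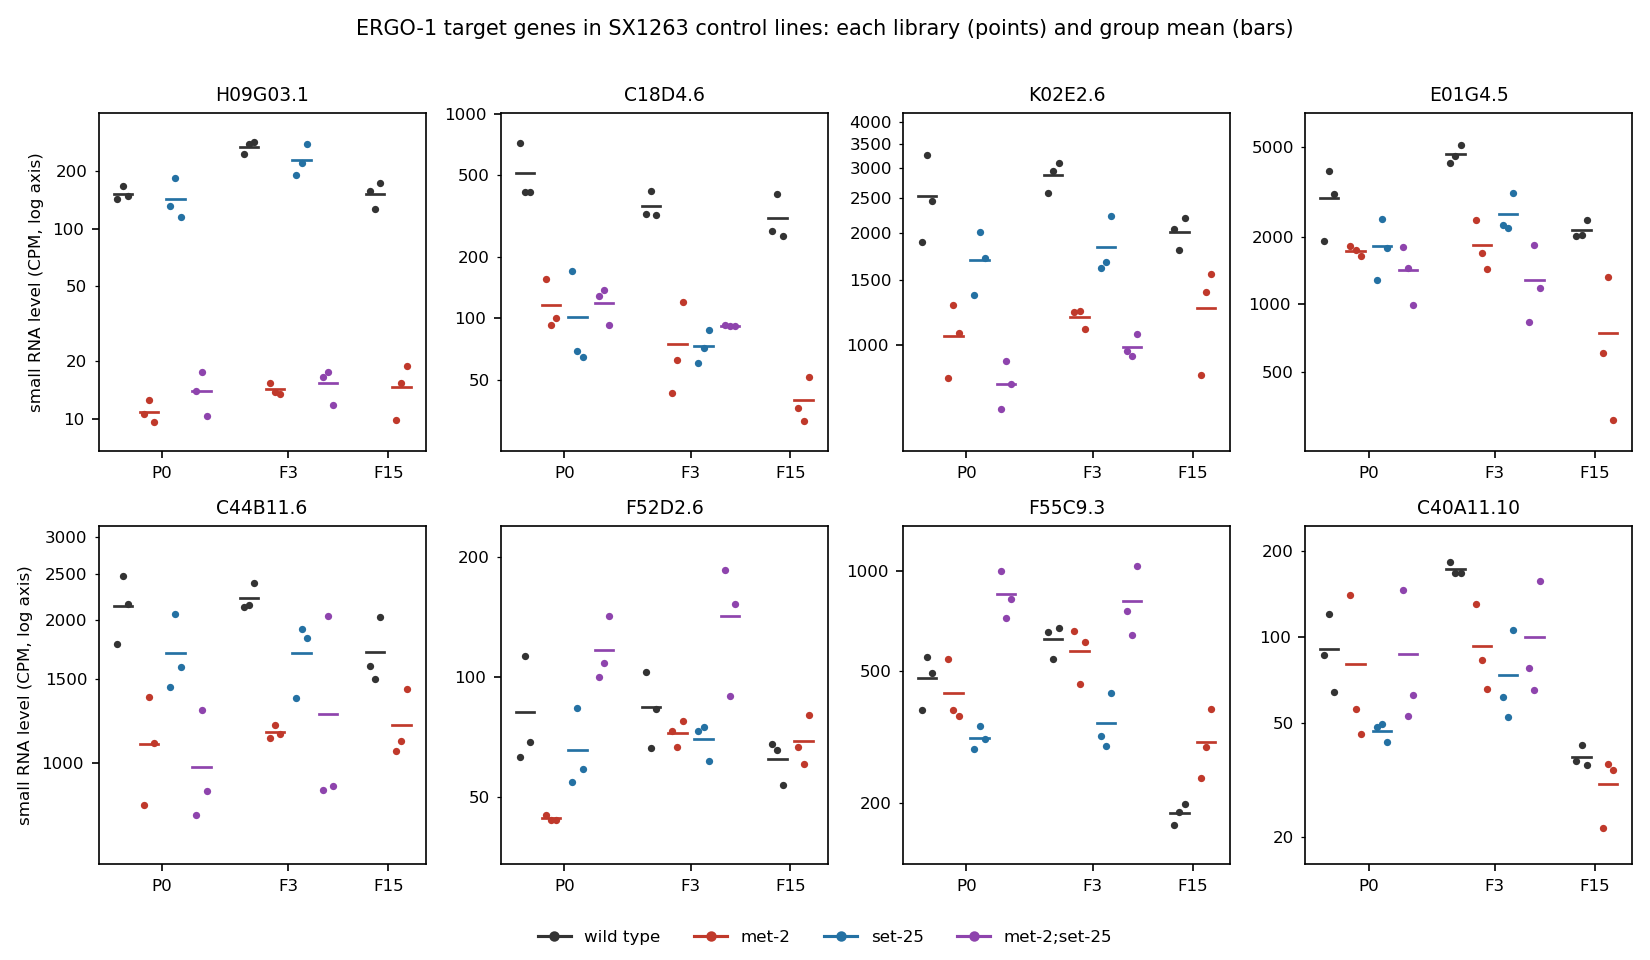
Level of each of the 8 genes in every SX1263 control library (CPM on a log axis), grouped by generation and genotype, with 1 point per library and a line at the mean. The met-2 and double-mutant points of H09G03.1 sit between 9.58 and 18.9 CPM against 127 to 284 CPM in wild type, and those of C18D4.6 sit below wild type in all 3 mutant genotypes.

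K02E2.6, E01G4.5 and C44B11.6 had the highest levels per kilobase of the set and showed smaller falls. K02E2.6 at F3 in SX1263 controls had 2570, 2949 and 3109 CPM in wild type, 1224, 1232 and 1103 CPM in met-2, 963, 934 and 1067 CPM in the double mutant and 1617, 1678 and 2234 CPM in set-25. No mutant library reached the wild-type range, and those of set-25 lay between the 2 other mutants and wild type. The log2 change was -1.28 in met-2 (SE 0.18, edgeR adjusted p = 2.6e-05) and -1.60 in the double mutant (adjusted p = 2.2e-06), and -0.66 in set-25 (adjusted p = 0.079). The change in set-25 was called by DESeq2 (adjusted p = 0.012), with the replicate block (0.0076) and in the compared groups alone (0.027). At P0 the change in set-25 was also short of the call, and with the replicate number as a block, which there paired the samples, it was -0.57 (adjusted p = 0.0028).

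K02E2.6 was called lower in all 14 comparisons with met-2 mutated, by -0.70 to -2.23 on the log2 scale and without overlap in any. At P0 it had 1892, 3255 and 2449 CPM in wild type and 813, 1278 and 1075 CPM in met-2, and at F15 it had 2054, 1808 and 2205 CPM in wild type and 827, 1391 and 1556 CPM in met-2. The smallest of the 14 changes was that at F15 (-0.70, edgeR adjusted p = 0.038), and 5 alternative settings lost this call (adjusted p 0.053 to 0.12). In EG6089 it had 1177, 1163 and 1037 CPM in wild type at F3 and 499.6, 519.7 and 519.7 CPM in the double mutant, and at P0 1171, 1547 and 1239 CPM against 468, 812 and 455.5 CPM.

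E01G4.5 at F3 in SX1263 controls had 4248, 4568 and 5111 CPM in wild type, 2367, 1700 and 1444 CPM in met-2, 838.5, 1845 and 1187 CPM in the double mutant and 2250, 2187 and 3128 CPM in set-25. All 9 mutant libraries lay below the wild-type ones, and the called changes were -1.34 in met-2 (SE 0.33, edgeR adjusted p = 0.0044) and -1.91 in the double mutant (adjusted p = 0.00023). In set-25 the change was -0.90 (adjusted p = 0.28), called when the compared groups were fitted alone (0.0074). At P0 the wild-type libraries of E01G4.5 spread from 1906 to 3895 CPM, and its call in met-2 (-0.79, edgeR adjusted p = 0.046) was lost under 7 alternative settings (adjusted p 0.065 to 0.26). At F15 it had 2011, 2026 and 2375 CPM in wild type and 607, 1329 and 308 CPM in met-2. The fall at F15 was -1.54 (edgeR adjusted p = 0.015), a call lost when the compared groups were fitted alone (0.063). E01G4.5 in EG6089 wild type had 1472, 1358 and 1285 CPM at F3 against 409.7, 706.7 and 420.4 CPM in the double mutant (-1.31, edgeR adjusted p = 0.00031), and at P0 the libraries overlapped (-0.60, adjusted p = 0.32). E01G4.5 was called lower in 11 of 14 comparisons with met-2 mutated and in 0 of 4 with set-25 alone.

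C44B11.6 at F3 in SX1263 controls had 2135, 2146 and 2390 CPM in wild type and 1128, 1202 and 1148 CPM in met-2, a fall of 0.94 on the log2 scale (SE 0.24, edgeR adjusted p = 0.0065). In set-25 it had 1366, 1911 and 1834 CPM and was not called. In the double mutant it had 876.5, 2039 and 892 CPM. Replicate 2 there lay close to wild type, and the call (-0.88, edgeR adjusted p = 0.008) was lost when the compared groups were fitted alone (0.078) and without double-mutant replicate 3 (0.053). At P0 its change in met-2 was -0.98 (edgeR adjusted p = 0.016), lost without met-2 replicate 1 (0.073) or wild-type replicate 2 (0.065). EG6089 wild type had 1631, 1474 and 1391 CPM at F3 and the double mutant 547, 472 and 636 CPM (-1.33, edgeR adjusted p = 9.9e-07). C44B11.6 was called lower in 13 of 14 comparisons with met-2 mutated, the other being F15 in control lines (-0.52, adjusted p = 0.07, but 0.048 by DESeq2 and 0.031 with the replicate block), and in 0 of 4 with set-25 alone. At P0 in anti-GFP lines its call in met-2 was lost under 7 alternative settings, RLE scaling among them (adjusted p 0.053 to 0.24), and that in the double mutant under 4 (adjusted p 0.074 to 0.15).

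The anti-GFP lines gave like levels in other libraries, which were not fully independent of the control lines in every genotype. Same-numbered anti-GFP and control libraries of SX1263 at F3 had correlated deviations in met-2 (0.144 to 0.296) and set-25 (0.185 to 0.518). In wild type (0.0167 to 0.157) and the double mutant (-0.0372 to 0.105) these correlations were lower. At F3 in SX1263, H09G03.1 had 199, 321 and 301 CPM in wild type, 166, 227 and 264 CPM in set-25, 15.3, 12.45 and 13.0 CPM in met-2 and 9.79, 17.3 and 10.85 CPM in the double mutant. C18D4.6 had 369.9, 271 and 341 CPM in wild type, 78.6, 55.5 and 91.2 CPM in set-25, 46.85, 56.1 and 86.0 CPM in met-2 and 106.0, 129 and 92.6 CPM in the double mutant. The libraries of met-2 and the double mutant lay below wild type for both genes, and those of set-25 did so for C18D4.6 and overlapped for H09G03.1. The log2 change of C18D4.6 was -2.42 in met-2, -2.13 in set-25 (SE 0.30, edgeR adjusted p = 0.00069) and -1.61 in the double mutant. K02E2.6 had 2385, 2682 and 3166 CPM in wild type, 1092, 1163 and 1328 CPM for met-2, 1396, 1666 and 2350 CPM for set-25 and 848.5, 939.8 and 973.9 CPM for the double mutant. No mutant library of K02E2.6 reached the wild-type range. E01G4.5 had 3471, 3642 and 4283 CPM in wild type, 2126, 1406 and 2908 CPM in met-2 and 1116, 716 and 984 CPM in the double mutant, with calls in the latter (-2.03, edgeR adjusted p = 0.00016) and not in met-2 (-0.87, adjusted p = 0.05 after rounding, not below the threshold). In EG6089 at F3, H09G03.1 had 179, 199 and 196 CPM in wild type and 8.39, 10.8 and 6.12 CPM in the double mutant, and C18D4.6 had 269, 325 and 374 CPM against 46.5, 62.8 and 55.3 CPM. The double-mutant libraries lay below wild type for both genes.

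F55C9.3 was the member whose calls against wild type were all higher. In EG6089 controls at F3 it had 272, 268 and 271 CPM in wild type and 565, 584 and 664 CPM in the double mutant, and at P0 173, 152 and 199.9 CPM against 575, 849.8 and 608 CPM. The groups did not overlap at either generation, and the log2 changes were 1.27 at F3 (SE 0.11, edgeR adjusted p = 4.9e-07) and 1.89 at P0 (SE 0.49, adjusted p = 0.0056), the latter 2.06 with RLE scaling. The anti-GFP lines gave 284, 256.5 and 250.3 CPM in wild type at F3 and 795, 607 and 839 CPM in the double mutant, a change of 1.62 (edgeR adjusted p = 4.2e-08). In SX1263 controls at P0 it had 381, 549.7 and 493 CPM in wild type and 1004, 723 and 827 CPM in the double mutant (0.81, SE 0.22, edgeR adjusted p = 0.0095), and this call was lost without double-mutant replicate 1 (0.054). At F3 in SX1263 the libraries of wild type (653.5, 545 and 675 CPM) and double mutant (759.8, 640.7 and 1040 CPM) overlapped, and the change of 0.33 was not called. The single mutants lay on the other side or close to wild type at F3, with 317, 297 and 429.9 CPM in set-25 (-0.86, adjusted p = 0.20, but 0.016 with the replicate block and 0.0089 in the compared groups alone) and 662, 455 and 610.4 CPM in met-2 (-0.12). At F15 in anti-GFP lines it had 178, 160.0 and 250.0 CPM in wild type and 375, 252 and 486 CPM in met-2, without overlap (0.90, edgeR adjusted p = 0.028), a call lost under 5 alternative settings (adjusted p 0.055 to 0.11). F55C9.3 was called higher in 5 of 14 comparisons with met-2 mutated and lower in 0. In the EG6089 controls at F3 the summed small RNA level on the 5 intestine marker genes was also higher in the double mutant, at 41.6 to 43.4 CPM against 5.72 to 12.03 CPM in wild type. At P0 in SX1263 controls it was 29.6 to 39.1 CPM in the double mutant against 6.88 to 8.24 CPM in wild type. In SX1263 controls at F3, where F55C9.3 was called in no mutant, this sum differed between genotypes too. It was 75.1 to 85.4 CPM in the double mutant, 31.5 to 45.9 in met-2, 9.38 to 17.2 in set-25 and 17.7 to 20.3 in wild type. The part of these marker genes in the level of F55C9.3 was not tested.

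F52D2.6 was higher in the SX1263 double mutant and lower in the EG6089 one at F3. In SX1263 anti-GFP lines at F3 it had 71.9, 60.0 and 56.6 CPM in wild type and 134.7, 151 and 119.9 CPM in the double mutant, without overlap (log2 change 1.08, SE 0.22, edgeR adjusted p = 0.00086). In control lines it had 103, 66.2 and 83.0 CPM in wild type against 185, 89.6 and 153 CPM, which overlapped (0.71, SE 0.21, edgeR adjusted p = 0.014). That call in control lines was lost when the compared groups were fitted alone (0.092), without double-mutant replicate 1 (0.11) and without wild-type replicate 2 (0.092). In EG6089 controls at F3 wild type had 411, 287 and 292 CPM and the double mutant 98.3, 123 and 100.4 CPM, and every double-mutant library lay below every wild-type one (-1.52, SE 0.16, edgeR adjusted p = 2.8e-06). EG6089 anti-GFP lines at F3 had 277, 243.6 and 272 CPM in wild type and 129, 114 and 153.5 CPM in the double mutant (-0.89, edgeR adjusted p = 0.00027). In EG6089 controls at P0 it was not called, with means of 58.66 CPM in wild type and 63.15 CPM in the double mutant. At F3 these means were 329.8 and 107.2 CPM, so the wild-type level in control lines also differed between generations. In EG6089 anti-GFP lines at P0 it was called lower, with means of 239.1 CPM in wild type and 84.89 CPM in the double mutant, although the libraries overlapped. The strains were counted and fitted separately, so that the difference between their effects was not tested. In SX1263 met-2 alone, F52D2.6 was called lower at P0 (45.1, 43.6 and 43.8 CPM against 62.8, 113 and 68.7 CPM in wild type, -0.90, edgeR adjusted p = 0.0062), a call lost without wild-type replicate 2 (-0.57, 0.06). In the SX1263 double mutant at P0 it was not called (0.49, adjusted p = 0.11), and with the replicate block, which paired these samples, it was (0.53, adjusted p = 0.023).

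**Figure D3:**
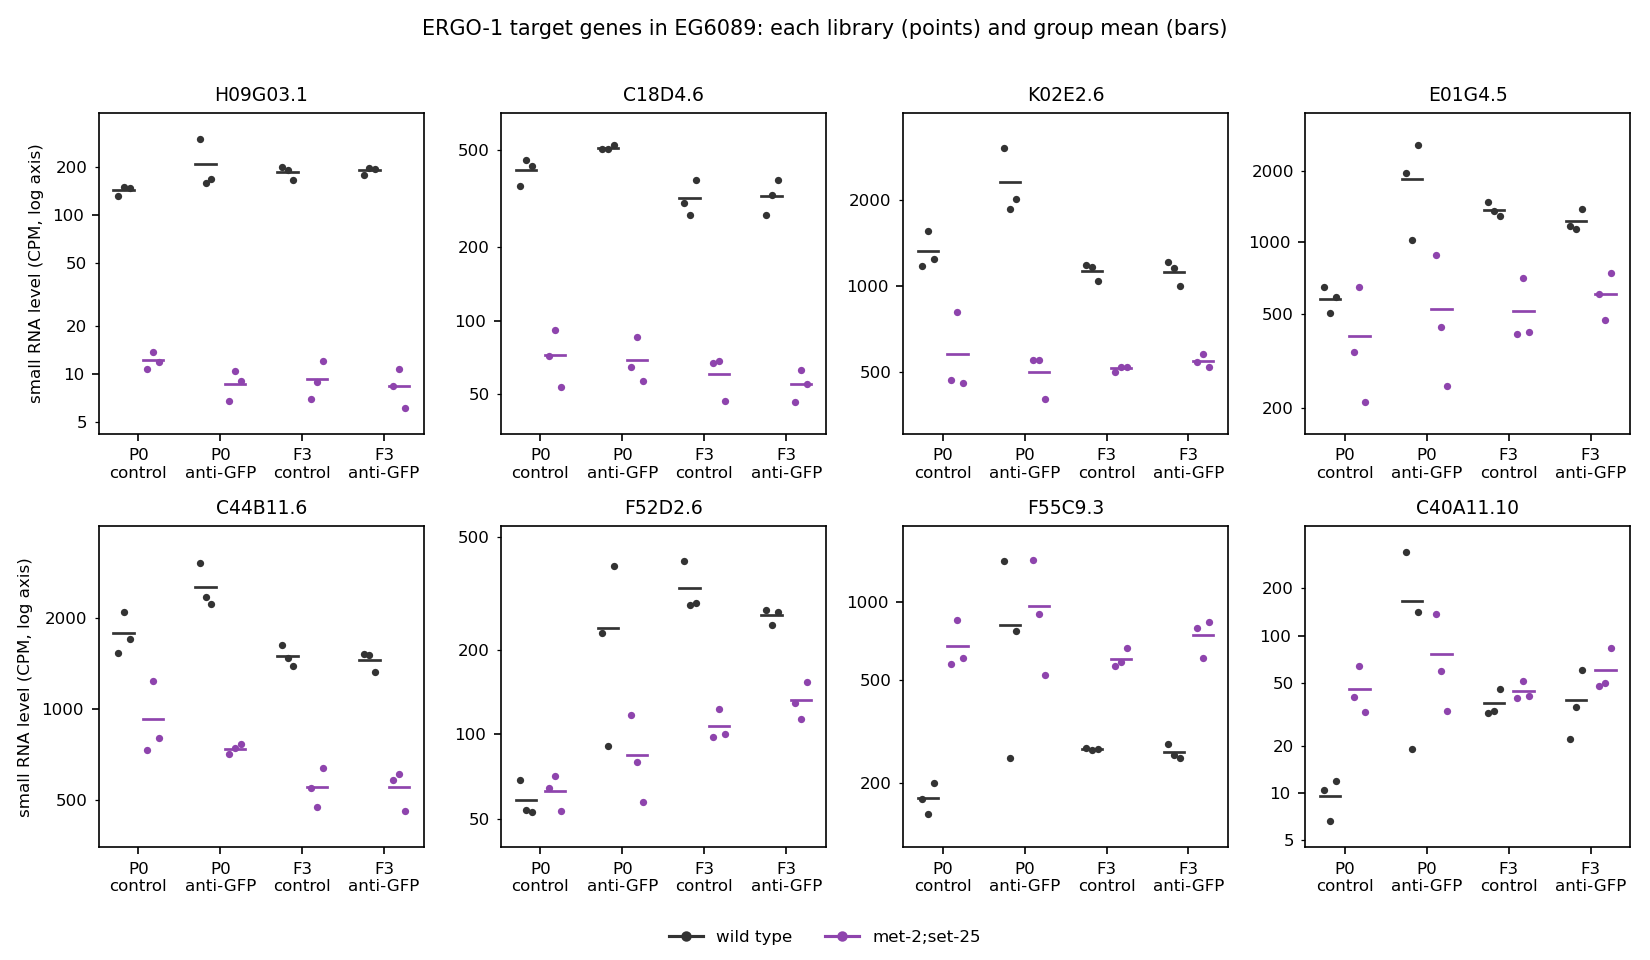
Level of each of the 8 genes in every EG6089 library (CPM on a log axis), grouped by generation, genotype and line, with 1 point per library and a line at the mean. At F3 the double-mutant points of F52D2.6 lie below those of wild type and the double-mutant points of F55C9.3 above them, and the anti-GFP wild-type libraries at P0 spread from 19.2 to 339 CPM for C40A11.10.

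C40A11.10 was called in none of the 18 comparisons of a mutant with wild type by edgeR's quasi-likelihood test. In SX1263 controls at F3 it had 182, 167 and 167 CPM in wild type, 62.0, 52.4 and 106.0 CPM in set-25, 130.0, 82.8 and 65.6 CPM in met-2 and 78.1, 65.2 and 157 CPM in the double mutant. All mutant libraries lay below the wild-type ones, with a wide spread among them, and the log2 changes were -1.25 in set-25 (SE 0.48, adjusted p = 0.35), -0.89 in met-2 (adjusted p = 0.19) and -0.82 in the double mutant (adjusted p = 0.18). When the compared groups were fitted alone those in set-25 (0.046) and met-2 (0.043) were called, as was that in the double mutant with the replicate block (0.04). In EG6089 controls at P0 it had 10.4, 6.64 and 11.9 CPM in wild type and 40.7, 64.1 and 32.8 CPM in the double mutant. The change there was 2.17 (SE 0.84, adjusted p = 0.053), and it was called with RLE scaling (adjusted p = 0.024), with DESeq2 (0.014) and when the compared groups were fitted alone (4.5e-06).

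The double mutant was set against the sum of the single effects in SX1263 control lines, which asks whether the changes add on the log2 scale. At P0, 3 of the 8 genes had a double-mutant change above that sum, where 2.50% of all genes did, and at F3 the same 3 genes did, where 3.31% did. C18D4.6 fell by about as much in the double mutant (-2.14 at P0, -2.002 at F3) as in met-2 alone (-2.16 and -2.24) and in set-25 alone (-2.34 and -2.29). Its difference from the sum was 2.36 at P0 (SE 0.67, edgeR adjusted p = 0.042) and 2.53 at F3 (SE 0.42, adjusted p = 0.001). F52D2.6 stood 1.71 above the sum at P0 (SE 0.31, adjusted p = 0.0022) and 1.21 at F3 (SE 0.30, adjusted p = 0.018). F55C9.3 stood 1.57 above it at P0 (SE 0.31, adjusted p = 0.0037) and 1.305 at F3 (SE 0.40, adjusted p = 0.049). For F52D2.6 and F55C9.3 the means of the single mutants were near or below wild type, while the mean of the double mutant was above them. Double-mutant and wild-type libraries overlapped for F52D2.6 at P0 and F3 and for F55C9.3 at F3. For F55C9.3 at F3 the double mutant also overlapped with met-2. The call on C18D4.6 at P0 was lost without the low-count filter (edgeR adjusted p = 0.081) and in 10 of 12 fits that left out 1 library (0.055 to 0.12), all but those without met-2 or set-25 replicate 1. That on F55C9.3 at F3 was lost without the filter (0.069) and in 9 of 12 such fits (0.052 to 0.11), all but those without met-2 replicate 1, set-25 replicate 3 or double-mutant replicate 2. The call on F52D2.6 at F3 was lost without wild-type replicate 1 (0.055), and that on C18D4.6 at F3 held in each of the 12 fits. The other 5 genes were not called.

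**Figure D4:**
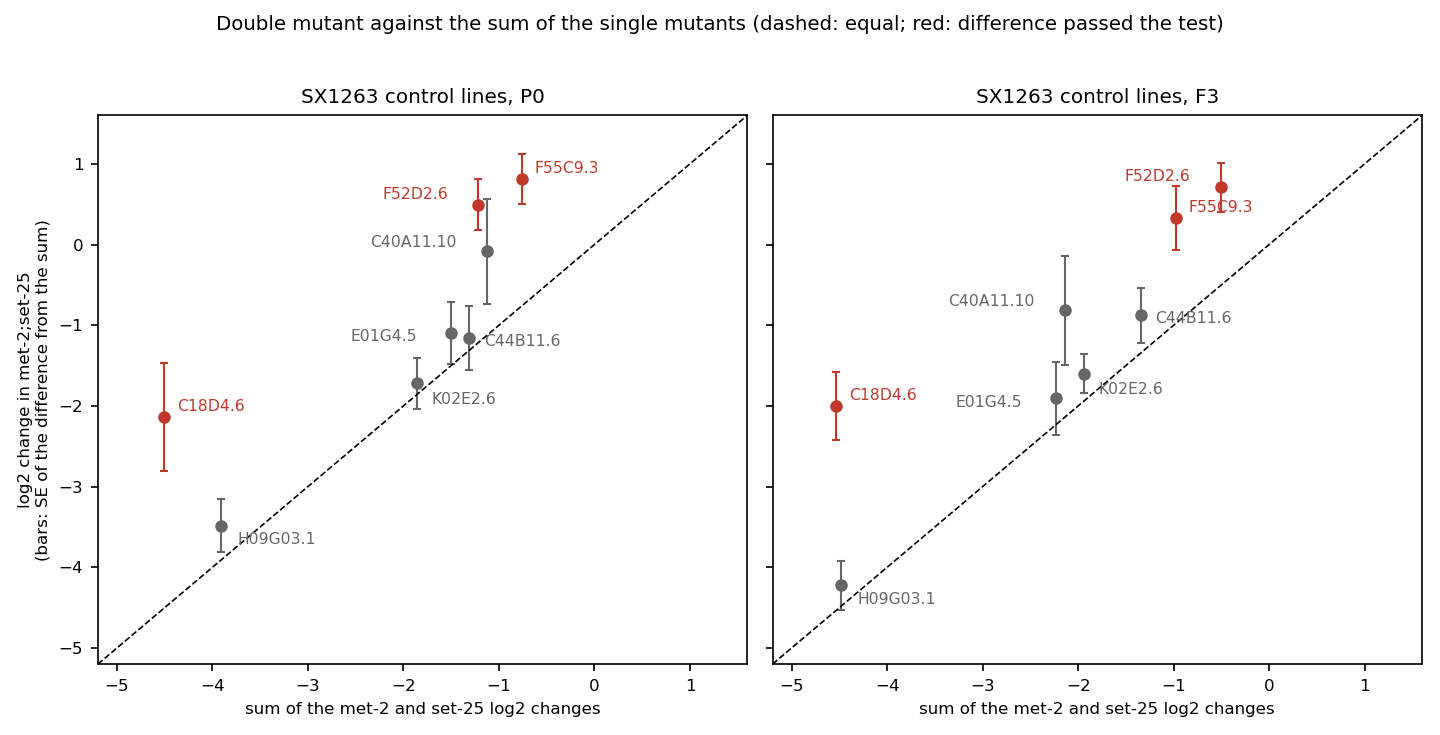
Log2 change in the SX1263 double mutant (vertical axis) against the sum of the changes in met-2 and set-25 (horizontal axis) in control lines, at P0 and F3, with 1 point per gene and the line of equality. C18D4.6, F52D2.6 and F55C9.3 lie above the line at both generations, by 1.21 to 2.53.

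Mutants were also compared with each other in SX1263 control lines. Between met-2 and set-25, 2 of the 8 genes were called at P0 and at F3, both lower in met-2 (9.16% and 9.93% of all genes were). They were H09G03.1 (-3.73 at P0, and at F3 14.3 ± 1.02 against 230.9 ± 45.1 CPM) and K02E2.6 (-0.69, edgeR adjusted p = 0.032, and -0.62, adjusted p = 0.012). Between the double mutant and met-2, 2 genes were called higher at P0 (6.31% of all genes), F52D2.6 (1.39, adjusted p = 0.00024) and F55C9.3 (0.97, adjusted p = 0.004), and 1 at F3 (9.24%), F52D2.6 (0.93, adjusted p = 0.004). Between the double mutant and set-25, 5 genes were called at P0, where 19.8% of all genes were called in either direction. H09G03.1 was lower there by -3.39, K02E2.6 by -1.14 and C44B11.6 by -0.82, and F52D2.6 and F55C9.3 were higher by 0.81 and 1.41. At F3, 5 were called against 31.5% of all genes, of which H09G03.1 (-3.98), K02E2.6 (-0.94) and E01G4.5 (-1.01) were lower and F52D2.6 (0.99) and F55C9.3 (1.19) higher.

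Between generations in SX1263 control lines, no member was called from P0 to F3 by edgeR in any of the 4 genotypes, and the shares of all genes called either way were 0.905% for wild type, 0.378% for met-2, 0.323% for set-25 and 5.31% for the double mutant. At an unadjusted p under 0.05 there were 2 in wild type (C40A11.10 and H09G03.1), 1 in met-2 (F52D2.6), 1 in set-25 (H09G03.1) and 0 in the double mutant. Of all 12706 genes tested, 1733, 1670, 1518 and 2925 were under that limit in these genotypes, in the same order. DESeq2 called 1 of the 8, H09G03.1 in wild type. H09G03.1 had 153 ± 12.4 CPM at P0 and 270.4 ± 19.9 CPM at F3 in wild type (SD, n = 3), without overlap, and edgeR did not call it (0.82, adjusted p = 0.057). From F3 to F15 in wild type, C40A11.10 fell from 172.1 ± 8.47 to 38.3 ± 3.17 CPM (-2.17, SE 0.48, edgeR adjusted p = 0.029, and 0.053 without the low-count filter) and F55C9.3 from 653.5, 545 and 675 CPM to 171, 188 and 198 CPM (-1.75, SE 0.26, adjusted p = 0.00057). These were 2 of 8 genes, where 0.173% of all genes were called lower. The intestine marker genes summed to 17.7 to 20.3 CPM at F3 and 6.63 to 9.31 CPM at F15 in these libraries, and their part in both falls was not tested. In met-2 from F3 to F15, 3 of 8 were called lower (10.9% of all genes), C40A11.10 by -1.60, E01G4.5 by -1.30 and F55C9.3 by -0.91. In these libraries the sperm list went from 199.0 to 314.4 CPM at F3 to 44.5 to 147.7 CPM at F15 and the body muscle list from 168.2 to 474.2 to 9.02 to 23.3 CPM, and their part was not tested.

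In EG6089 wild-type controls F52D2.6 was called higher at F3 than at P0, where its libraries ran from 53.1 to 68.9 CPM, and the change was 2.49 (SE 0.34, edgeR adjusted p = 0.00046). This was 1 of 8 genes, where 4.84% of all genes were called higher. Over all genes the calls split into 454 higher of 789, and with RLE scaling into 291 higher of 781. In the EG6089 double mutant 1 of 8, C44B11.6, was called lower at F3 than at P0 (11.3% of all genes), by -0.74 (edgeR adjusted p = 0.012). That call was lost without replicate 2 at F3 (0.062) or at P0 (0.15). Whether a mutant's effect differed between generations was tested 5 times, and edgeR called none of the 8 genes, where 0.0157% of all genes were called for met-2, 0.0% for set-25 and for the double mutant, 0.341% for EG6089 and 3.78% for met-2 from F3 to F15. At an unadjusted p under 0.05 there were 0 genes for met-2 and set-25 in SX1263, 1 for the double mutant (H09G03.1), 2 for the EG6089 double mutant (F52D2.6 and H09G03.1) and 3 for met-2 from F3 to F15 (F55C9.3, H09G03.1 and K02E2.6). Over all genes there were 446, 102 and 656 of 12706 for met-2, set-25 and the double mutant in SX1263. There were 1023 of 9373 for EG6089 and 1710 of 12706 for met-2 from F3 to F15. DESeq2 called 1 of the 8, F52D2.6 in EG6089, beside 123 of all 9373 genes there.

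Anti-GFP lines were compared with control lines of the same genotype and generation in 14 comparisons, which ask whether feeding against GFP altered these endogenous targets. By edgeR none of the 8 genes was called in any, where 0.0% to 0.131% of all genes were. In SX1263 those shares were 0.0079% in each genotype at P0, 0.00874% for wild type, 0.131% for met-2, 0.0% for set-25 and 0.0962% for the double mutant at F3, and 0.0% for wild type and 0.0937% for met-2 at F15. In EG6089 they were 0.011% in both genotypes at P0, and 0.0112% for wild type and 0.0224% for the double mutant at F3. At an unadjusted p under 0.05 there were 7 in EG6089 wild type at P0 (all but C18D4.6), beside 479 of all 9079 genes. There were 3 in the SX1263 double mutant at P0, beside 251 of 12657. At F3 in EG6089 there was 1 each in wild type (190 of 8943 over all genes) and in the double mutant (586 of 8943). DESeq2 called 3 of the 8, all in EG6089 wild type at P0, where it called 26 of the 9079. In that comparison C40A11.10 had 339, 19.2 and 142 CPM in anti-GFP libraries and 10.4, 6.64 and 11.9 CPM in controls, and F55C9.3 had 1435, 249.7 and 769 CPM against 173, 152 and 199.9 CPM. F52D2.6 had 229, 91.2 and 397 CPM against 53.1 to 68.9 CPM. All 3 anti-GFP libraries lay above the controls for these genes, with replicate 2 the lowest, and the log2 changes of 4.06, 2.19 and 2.004 were not called by edgeR (adjusted p = 0.35 for C40A11.10). DESeq2 gave adjusted p values of 0.00096, 0.0019 and 0.00058, and edgeR called all 3 without anti-GFP replicate 2 (0.0073, 0.0042 and 0.003). In the same libraries the summed level on the intestine marker genes was 63.0, 5.11 and 19.4 CPM against 4.63, 7.84 and 6.66 CPM in controls, again lowest in replicate 2. The part of that difference in the values above was not tested.

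Genes of the pathway itself were read from a list of 35, which covers 26G formation, primary Argonautes, secondary siRNA formation and nuclear or cytoplasmic Argonautes. Reads on these genes are small RNAs, not their messenger RNAs. At F3 in SX1263 controls, 2 of 35 were called higher and 3 lower in met-2, where 2043 of 11439 genes tested were called higher and 1175 lower. None was called in set-25, and 6 were called higher and 9 lower in the double mutant, beside 2125 and 2259 of the 11439. In EG6089 at F3, 7 of 33 tested were called higher and 10 lower, beside 2121 and 2427 of 8943. The called members with the lowest adjusted p are named here, up to 4 a comparison. Small RNAs on ergo-1, the Argonaute of the class, fell in the double mutant at F3 from 110.2 ± 5.91 to 68.7 ± 3.06 CPM in SX1263 (-0.74, edgeR adjusted p = 0.00012) and from 92.9 ± 6.55 to 45.7 ± 4.35 CPM in EG6089 (-0.92, adjusted p = 7.5e-06). In the SX1263 double mutant, small RNAs on pir-1, of the 26G-forming complex (-1.01), and henn-1, the methyltransferase (-0.60), were also lower, while those on ego-1, a polymerase of secondary siRNAs (0.36), were higher. In EG6089, those on eri-9, of the 26G-forming complex (-1.68), and mut-2 (-1.08) were lower and those on rde-12 (0.67) higher, the latter pair acting in secondary siRNA formation. Among the 26G-formation genes in EG6089, pir-1 was also lower (-0.97) and eri-3 higher (0.47, edgeR adjusted p = 0.0043), a pair named after its values were seen. In met-2 the calls of lowest adjusted p were alg-3 (3.26) and alg-4 (3.59), the Argonautes of the male germline class, both higher, and rde-11 (-0.68) and eri-6 (-0.66), both lower. From wild type to met-2, alg-3 went from 1.36 ± 0.738 to 13.4 ± 11.8 CPM and alg-4 from 0.227 ± 0.222 to 3.04 ± 1.56 CPM. The wild-type mean of alg-4 lay within the range of the 3-count floor (0.183 to 1.06 CPM).

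Because tissues of whole animals could differ between genotypes, small RNAs on marker genes of other cell types were summed, although reads of this kind cannot show a tissue as messenger RNA would. In SX1263 controls at F3 the oocyte list summed to 727.4 to 738.8 CPM in wild type, 689.8 to 743.6 in met-2 and 657.4 to 952.3 in the double mutant. In set-25 the oocyte list had 704.3 to 756.2 CPM and the sperm list 71.1 to 77.6 CPM. The sperm list was higher in met-2 (199.0 to 314.4 CPM) and lower in the double mutant (42.7 to 63.1 CPM) than in wild type (68.7 to 87.4 CPM). Its genes did not move together: fer-1 went from 4.07 to 243.4 CPM in met-2 (5.88), while spe-41, most of the wild-type sum at 70.7 CPM, fell in met-2 (-3.02) and in the double mutant (-0.79). The intestine list went from 17.7 to 20.3 CPM in wild type to 31.5 to 45.9 in met-2, 75.1 to 85.4 in the double mutant and 9.38 to 17.2 in set-25. The body muscle list had 18.6 to 20.1 CPM in wild type, 168.2 to 474.2 in met-2, of which myo-3 gave a mean of 215.1, and 2.83 to 5.70 in the double mutant, where unc-54 fell (-4.72). In set-25 this list had 4.98 to 5.9 CPM, and unc-54 fell there too (-3.82). No gene of these lists was at 0 throughout any of these groups. The part of these lists in the changes of the 8 genes was not tested.

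The 8 genes did not vary as 1 block. Over the 59 SX1263 libraries the Pearson correlation of log2 CPM between pairs of them had a median of 0.30 over 28 pairs, from -0.41 (H09G03.1 with F55C9.3) to 0.89 (K02E2.6 with C44B11.6). These points share libraries and genotypes, and the values are a description. For each gene the most alike genes among 12706 were found on the same scale. C18D4.6 was most like F31E9.6 (r = 0.967), which lies on the same chromosome (V, 17313569 to 17315153), and then F33E2.5 (r = 0.853). Both were called lower in the set-25 mutant at F3, F31E9.6 by -4.12 (edgeR adjusted p = 2.6e-06) and F33E2.5 by -2.28 (adjusted p = 0.0003), and in met-2 by -3.73 and -3.31. H09G03.1 was most like T16G12.8 (r = 0.961) and met-2 itself (r = 0.96), and both of these were near 0 in set-25 at F3 (-0.26 and 0.06) and lower in met-2 (-3.07 and -1.76). T16G12.8 (III, 10059302 to 10059897) and met-2 lie on the same chromosome as H09G03.1. Reads on met-2 are low in its own mutants, as in the check of the genotypes, so a gene low in those groups correlates with it by design. K02E2.6 was most like C01A2.1 (r = 0.905) and E01G4.5 most like F40H3.6 (r = 0.911), while F52D2.6 reached only r = 0.731, with mce-1.

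Genes within 20000 bases were examined to see whether a member moved with its surroundings. Around H09G03.1, 0 of 3 tested neighbours were called in met-2 at F3 in SX1263 controls, and around C44B11.6 0 of 2. Over all 11439 genes tested there, 3218 were called in met-2 (1175 lower), 4384 in the double mutant (2259 lower) and 127 in set-25. In the double mutant at F3, frm-8 near H09G03.1 was called higher (1.84) and nduf-9 lower (-0.73), and R148.5 near C44B11.6 lower (-3.36). In the EG6089 double mutant at P0, 2 of the 3 near H09G03.1 were called lower, where 27.4% of all genes were. Around K02E2.6, 2 of 5 were called in met-2 at F3, F53H2.1 higher (2.07) and grd-11 lower (-2.02). Around F52D2.6, 3 of 5 were called, F52D2.5 higher (1.19) and fbxa-46 (-1.49) and F52D2.12 (-3.04) lower. Around E01G4.5, 1 of 6 was called, the aldehyde dehydrogenase gene alh-7 (1.57, higher). Around F55C9.3, which itself did not pass the test there, 5 of 7 were called lower in met-2, where 10.3% of all genes were. They were F55C9.14 (-4.07), F55C9.6 (-2.77), the F-box genes fbxb-62 (-2.49) and fbxb-63 (-1.38), and F21D9.8 (-1.29). F-box genes of this family have close copies, so that their reads are uncertain. In the double mutant 5 of these 7 neighbours were called lower and 1 higher, F21D9.8 (0.82), and in set-25 none was called. F55C9.5, the nearest of these tested neighbours of F55C9.3 at 2400 bases, was not called in any of the 3 mutants at F3 (0.12 for met-2, -0.89 for set-25 and 0.75 for the double mutant), and it was also the gene most like F55C9.3 over the 59 libraries (r = 0.795). Around C40A11.10, 3 of 6 neighbours were called lower in met-2 and 2 in the double mutant, which were C40A11.7 (-2.46 and -1.75) and C40A11.3 (-1.08 and -1.79) in both, and sdz-28 (-1.40) in met-2. Around C18D4.6 the F-box gene fbxa-136 was called lower in met-2 (-2.37) and in the double mutant (-2.08) but had 0.38 in set-25 (adjusted p = 1), the genotype in which C18D4.6 fell. In that mutant its other tested neighbour, C18D4.12, was called higher (0.76, edgeR adjusted p = 0.028).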

How the data were processed

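Each library's deposited file gave unnormalised counts for every gene, made by HTSeq after cutadapt, FastQC and Bowtie2, per the submitters' processing notes, which also name DESeq2 and the builds WBcel235 and ce11. Versions, strand, length filter and handling of reads with several matches are not given in the sources used here. Reads from near-identical copies are therefore uncertain. The HTSeq counter rows, which hold 50.8 to 62.0% of records (SX1263) and from 29.2 to 42.4% (EG6089), entered neither library sizes nor tests.

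Counts were fitted with edgeR 4.0.16 and limma 3.58.1 under R 4.3.3 (TMM scaling, filterByExpr at a minimum count of 10, minimum total 15, robust quasi-likelihood F test, two-sided, Benjamini-Hochberg threshold 0.05). Groups of a strain and generation were fitted together, or of a whole strain for comparisons between generations. In all 53 comparisons were made: 9 of mutants with wild type in control lines, 9 in anti-GFP lines, 14 of anti-GFP with control lines, 6 between mutants, 8 between generations, 5 on effects between generations and 2 on additivity. Correlations used log2 CPM with a prior count of 2. The alternatives left out the low-count filter or each library in turn, took RLE scaling or DESeq2 1.42.0, added a replicate block, or fitted the compared groups alone. The fit was tested on simulated data.

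All 8 genes with a row are named. Up to 4 called pathway genes a comparison at F3, by adjusted p, and the genes most alike to each member by correlation were named by rule. Neighbours, and further pathway and marker genes, were named after their values were seen. The members, lists and tests were chosen with earlier results of these data known. Replicate numbers were taken to pair samples where every same-numbered pair had correlated deviations over 0.1. That held in 2 of 9 control-line and 1 of 9 anti-GFP mutant comparisons, 6 of 14 of anti-GFP with control, 2 of 6 between mutants and 1 of 8 between generations.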

Additional observations from a re-analysis of the deposited data

Results flagged for a closer look

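In SX1263 control lines the change in the double mutant differed from the sum of the changes in met-2 and set-25 for 3 of the 8 genes, by a test of the difference itself (edgeR's quasi-likelihood test, Benjamini-Hochberg adjusted), where 2.50% of all genes at P0 and 3.31% at F3 stood above that sum by the same test. At P0 the difference on the log2 scale was 2.36 for C18D4.6, 1.71 for F52D2.6 and 1.57 for F55C9.3. At F3 it was 2.53 for C18D4.6, 1.21 for F52D2.6 and 1.305 for F55C9.3. The calls on C18D4.6 at P0 and F55C9.3 at F3 were lost in 10 and 9 of 12 fits that left out 1 library. In anti-GFP lines at F3, F52D2.6 changed in opposite directions in the double mutants of the 2 strains, with every library higher in SX1263 (1.08) and every library lower in EG6089 (-0.89). The strains were fitted separately, and this difference was not tested.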

How the results depend on the processing

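RLE scaling kept every count of called genes within 1.5 times the reported one. For set-25 against wild type in SX1263, where 1 gene was called each time, the count was 0 at P0 in control lines and 0 in anti-GFP lines when the compared groups were fitted alone, and 5 at F3 in control lines. Without the low-count filter it was 0 at P0 in anti-GFP lines, and with DESeq2 it was 2 at F3 in both kinds of line. Over all genes at F3, DESeq2 called 287 of 11439 in control lines and 226 in anti-GFP lines. The compared groups alone called 516 of 9601 in control lines at F3. For the double mutant in anti-GFP lines at P0 the fit of compared groups alone called 3 in place of 5. Between met-2 and set-25 at P0 no filter gave 1 and the compared groups alone 1 in place of 2, and between the double mutant and met-2 at F3 the latter gave 0 in place of 1. For anti-GFP against control in EG6089 wild type at P0, no filter called 4 and DESeq2 called 3 in place of 0. Over all genes these settings called 84 of 17279 and 26 of 9079, and the reported fit 1 of 9079. Between generations in wild type, DESeq2 called 1 from P0 to F3 in SX1263 in place of 0 and 2 in EG6089 in place of 1, and no filter called 1 from F3 to F15 in place of 2. DESeq2 called 1 gene, in place of 0, for the EG6089 effect at F3 against P0. The causes were not tested.

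With the replicate number as a block, counts moved for set-25 against wild type (2 at P0 and 3 at F3 in control lines, 2 at P0 and 2 at F3 in anti-GFP lines, in place of 1 each), between met-2 and set-25 at P0 (4 in place of 2), between the double mutant and met-2 at F3 (2 in place of 1) and from P0 to F3 in SX1263 wild type (1 in place of 0). Of these, the numbers paired the samples for set-25 at P0 in control lines (correlations of deviations 0.219 to 0.576) and at F3 in anti-GFP lines (0.107 to 0.262). For set-25 at P0 in anti-GFP lines only 2 pairs were present (0.419 and 0.607), and these were not taken as paired. In the other paired comparisons the block moved no count by over 1.5 times. Over all 11439 genes the block called 183 for set-25 at F3 in control lines and 130 in anti-GFP lines. Over the mutant comparisons in control lines the correlations ran from -0.0496 to 0.576.

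Leaving out 1 library at a time, the count for met-2 at P0 in control lines ranged from 3 to 6 and that for set-25 from 0 to 1. In anti-GFP lines at P0 the count ranged from 0 to 1 for set-25 and from 3 to 4 for the double mutant, and at F3 from 1 to 2 for set-25. It ranged from 0 to 3 for anti-GFP in EG6089 wild type at P0, from 1 to 2 between met-2 and set-25 at P0, from 1 to 3 there at F3, from 3 to 5 between the double mutant and set-25 at P0 and from 1 to 2 between the double mutant and met-2 at F3. For the double mutant against the sum it ranged from 2 to 3 at P0 and from 1 to 3 at F3, where 1 was left without wild-type replicate 1. For F3 against P0 in the EG6089 double mutant it ranged from 0 to 1. The count of 2 libraries in the wild-type anti-GFP group at P0 falls to 1 here, which is assumed to vary like the others. Leaving out libraries was added after seeing the data for the sum and for EG6089 between generations, and was not run for SX1263 between generations.

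Uncalled changes that turned sign without 1 library were those of C40A11.10 at P0 in met-2 (-0.8307 to 0.1155) and the double mutant (-0.6612 to 0.2067), H09G03.1 at P0 in set-25 (-0.3224 to 0.0367), F55C9.3 at F3 in met-2 (-0.2575 to 0.0463) and F52D2.6 at P0 in EG6089 (-0.0383 to 0.176). So did the uncalled differences from the sum of C44B11.6 (-0.0628 to 0.369 at P0, -0.024 to 0.704 at F3) and K02E2.6 (-0.0692 to 0.314 at P0). All genes called by edgeR numbered 127 for set-25 at F3 in control lines (287 by DESeq2, 516 in the compared groups alone), 121 for set-25 at P0 (269 with the block, 217 by DESeq2), 2972 for met-2 at P0 (4606 with the block, 1952 alone) and 3204 for the double mutant at P0 (5096 with the block). The median depth was lower in EG6089 than in SX1263 (3660163 against 7469120 gene counts), although the ranges overlapped. Fewer genes passed the filter in EG6089.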
